A study of Mus musculus with 16 samples.

Results

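The cytosolic heat shock proteins and the chaperonin subunits were examined in luminal cells of the mouse mammary gland. The 37 genes were chosen by name, from the HSP70, HSP40, HSP90, small heat shock protein and TRiC families with their co-chaperones and transcription factors. Of these, 32 had a probe set that carried a single gene symbol, and 31 passed a filter on low signal, out of 17097 genes with such a probe set and 14410 that passed the filter. Hspa1a, Hsp90ab1, Fkbp4, Hsf1 and Hspd1 had no such probe set and were not analysed here. Hsf2, a heat shock transcription factor, lay below the filter with a mean log2 signal of 2.94 over the 16 arrays and was not tested.

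Luminal cells had been isolated by flow sorting, and their RNA was read on 16 arrays, 4 for each of 4 genotypes. Every group carried MMTV-Cre, a Cre recombinase transgene driven by the mouse mammary tumour virus promoter, which is active in mammary epithelium. The group called MMTV-Cre had no other allele named, and the p38α-lox group also had the floxed p38α allele (p38a-lox); both came from mice of 9 weeks. The PyMT group carried MMTV-Cre with MMTV-PyMT, the polyoma middle T oncogene under the same promoter, and the p38α-lox PyMT group carried p38a-lox, MMTV-Cre and MMTV-PyMT; both came from mice of 6 weeks. Oncogene and age therefore cannot be told apart. The labels do not say that each array was a separate animal, so every p-value measures the spread between these samples, which may be technical.

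Heat shock proteins are chaperones that bind unfolded proteins. HSP70 holds exposed segments and is loaded by HSP40 J-domain proteins and unloaded by nucleotide exchange factors, HSP90 completes the folding of kinases and steroid receptors, and the ring-shaped TRiC complex folds actin and tubulin. Under proteotoxic stress the factor HSF1 binds heat shock elements, inverted repeats of the unit GAA and its complement TTC, and induces HSP70, HSP40, HSP90 and small heat shock protein genes.

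Heat shock elements were looked for in the promoters of the members, because the members that differed most between groups included known HSF1 targets. The search covered the 250 bases before each transcription start in the RefSeq promoter table (build GRCm38.p6), which held 30 of the 37 members. A pair of facing units, GAANNTTC or TTCNNGAA, was present in 13 of these 30 genes (43.3%), against 3932 of all 27025 genes in the table (14.5%). Each motif reads the same on both strands, and neighbouring matches may share a unit. Some members have several starts; among genes with 1 start the shares were 6 of 22 (27.3%) and 13.03%. A run of 3 alternating units, each 2 bases from the next, was present in 3 of the 30 members (10%) and in 0.514% of all genes. These were Hspd1, Hspe1 and Dnajb6. The members include families that HSF1 induces, so a share above that of all genes may follow from the choice. The near copies Hspa1a and Hspa1b, with 1 start each, count separately in the 13 and the 6. A match describes the sequence and does not show that a factor binds there. The following stretches are shown because their genes carry the results below, with 2 exceptions. Hspa1a is a near copy of Hspa1b, and Dnajb6 is the other tested member with 3 alternating units beside Hspe1. Capitals mark the GAA and TTC units of each match, and positions are counted in bases before the start.
Hspa1a: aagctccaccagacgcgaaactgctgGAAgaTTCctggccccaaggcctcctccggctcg
Hspa1b: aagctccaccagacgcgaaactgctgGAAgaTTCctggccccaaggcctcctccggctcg
Hsph1: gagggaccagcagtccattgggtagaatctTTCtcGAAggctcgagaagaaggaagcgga
Hspb1: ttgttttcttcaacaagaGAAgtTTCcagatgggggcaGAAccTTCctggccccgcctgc
Dnajb6: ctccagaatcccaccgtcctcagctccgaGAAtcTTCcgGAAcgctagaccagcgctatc
Hspe1: cacggtccgTTCtaGAAccTTCcgGAAggc

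The Hspa1a stretch lies at chr17:34972227-34972286 and the Hspa1b stretch at chr17:34959309-34959368, both on the minus strand. They are identical over all 60 bases, and the match begins 104 bases before the start in both genes. Over the whole 250 bases the promoters of these neighbouring genes were 98.8% identical. Their transcripts are near copies as well, so signal assigned to Hspa1b may include Hspa1a. The Hsph1 stretch (chr5:149636340-149636399, minus strand) holds a match 33 bases before its first listed start. The Hspb1 stretch (chr5:135887784-135887843, plus strand) holds separate matches that begin 117 and 97 bases before the start. In Dnajb6 (chr5:29735823-29735882, plus strand) overlapping matches begin 46 and 41 bases before the first listed start. The Hspe1 stretch (chr1:55088050-55088079, plus strand) also lies before a start of Hspd1 on the opposite strand, so the match counts once for each gene although it is 1 site.

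The sorted cells had high signal for luminal keratins and Epcam in every array. Log2 signal ran from 12.14 to 12.54 for Krt8, from 11.91 to 12.28 for Krt18, from 10.38 to 11.96 for Krt19 and from 10.93 to 11.99 for the epithelial adhesion molecule Epcam. Markers of luminal subtypes varied more. MMTV-Cre replicate 2 had the highest signal of the 16 arrays for the hormone-sensing markers Foxa1 (8.77) and Esr1 (10.71) and the lowest for the alveolar factor Elf5 (7.92). The other arrays ran from 3.91 to 6.54 for Foxa1, from 6.66 to 9.55 for Esr1 and from 8.70 to 10.32 for Elf5. The part of this in the member values of that array was not tested. The targeted gene Mapk14, which encodes p38α, did not separate the groups. Its log2 signal was 7.31 ± 0.862 (SD, n = 4) in p38α-lox against 6.53 ± 0.885 in MMTV-Cre (exact two-sided permutation p = 0.257), and 7.23 ± 0.103 in p38α-lox PyMT against 7.20 ± 0.321 in PyMT (exact p = 0.886). By array the signal was 7.11, 7.43, 5.56 and 6.02 in MMTV-Cre and 6.79, 6.37, 7.91 and 8.16 in p38α-lox. In both groups replicates 1 and 2 have sample titles in a lower range of numbers and replicates 3 and 4 in a higher range. The floxed arrays thus lay below the MMTV-Cre arrays in the lower range and above them in the higher range. Without PyMT the floxed group was higher on all 6 Mapk14 probe sets, which goes against the label, and with PyMT it was lower on 5 of the 6. The position of its probes relative to the deleted part is unknown here, and the values therefore do not measure recombination, and each p38α-lox direction below rests on the arrays as labelled. PyMT replicate 4 and p38α-lox replicate 2 had the lowest median correlations with the other arrays, 0.934 for each.

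The arrays differed in the level of the whole chaperone group. In PyMT replicate 4, 22 of the 31 tested members had their lowest signal within the PyMT group, where 30.6% of all tested genes did. The same held for 21 members in p38α-lox replicate 2 (23.4% of all genes) and for 16 in MMTV-Cre replicate 2 (26.0%). In p38α-lox PyMT replicate 3 it held for 15 members (24.7%). The median member lay 0.55 log2 units below its group mean in PyMT replicate 4, 0.35 in p38α-lox replicate 2 and 0.27 in MMTV-Cre replicate 2, where the median of all genes deviated by 0.02, 0.10 and 0.01 in the upward direction. The members of an array share its RNA and are not independent. Each median over all members is therefore followed below by its value without the array that moves it most, and counts by role by their values without PyMT replicate 4 or p38α-lox replicate 2 where those arrays change them. These leave-outs by role were chosen after seeing the data.

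**Figure D1:**
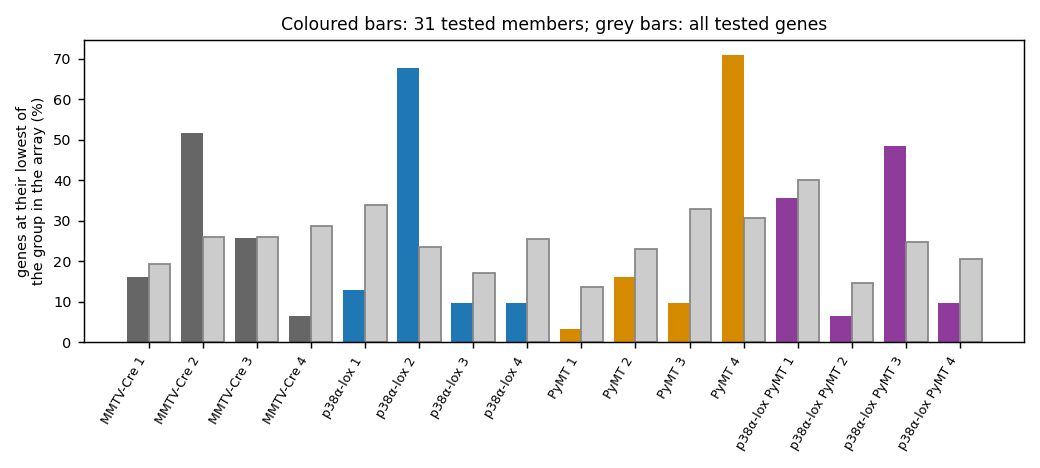
Share of genes (vertical axis, %) whose signal is the lowest of the 4 arrays of the group, for each array (horizontal axis). Coloured bars are the 31 tested members and grey bars all 14410 tested genes. PyMT replicate 4, p38α-lox replicate 2 and MMTV-Cre replicate 2 stand out with 71.0%, 67.7% and 51.6% of members.

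**Figure D2:**
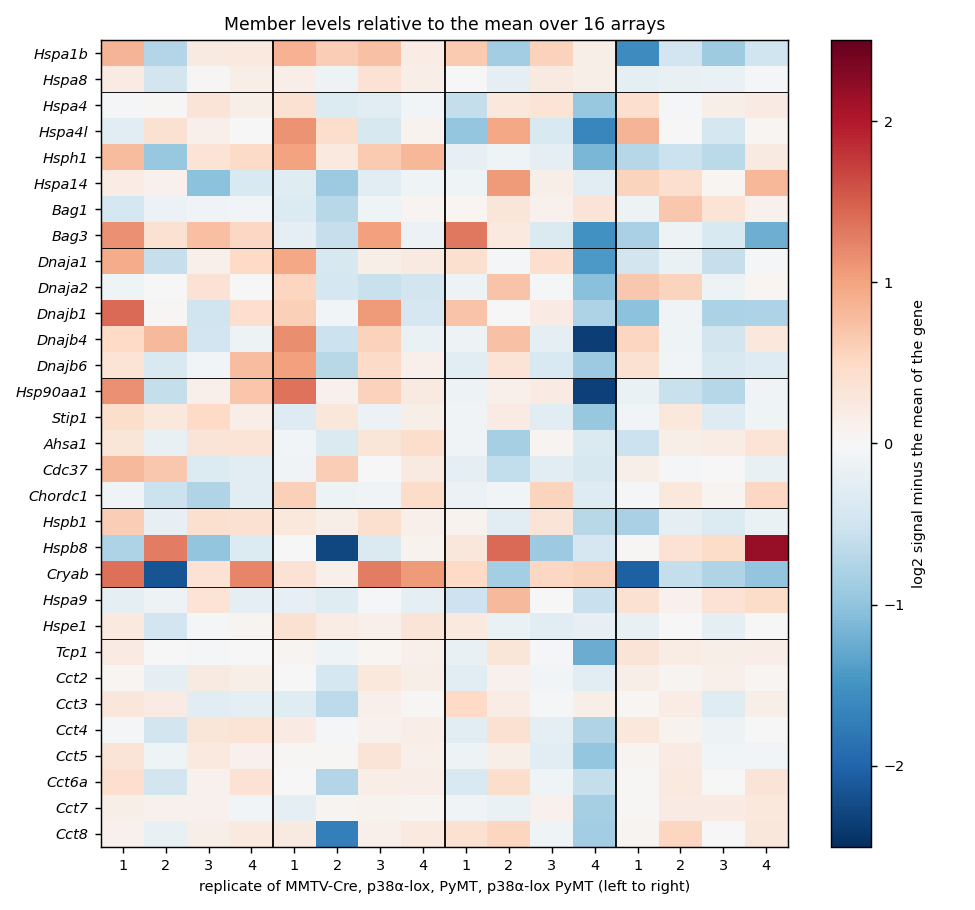
Log2 signal of each tested member minus its mean over the 16 arrays (colour scale from -2.5 to 2.5), with members in rows grouped by role and arrays in columns grouped by genotype. Red is above and blue below the mean of the gene. The p38α-lox PyMT columns are blue in the rows of Hspa1b and Cryab, and PyMT replicate 4 is blue across most rows.

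The comparison of p38α-lox PyMT with p38α-lox, which sets cells with the oncogene against cells without it on the floxed background, held the largest differences among the members. The inducible HSP70 gene Hspa1b, its nucleotide exchange factor Hsph1 and the small heat shock protein genes Hspb1 and Cryab had lower signal in all 4 p38α-lox PyMT arrays than in any p38α-lox array. Of the 31 members 0 were called by limma at an adjusted p below 0.05, where 0.777% of all genes were called. At an unadjusted p below 0.05 there were 9 members (29.0%) against 12.2% of all genes. By direction these were 6 lower (5.38% of all genes) and 3 higher (6.77%). The estimate alone was lower for 19 of 31 members, against 53.5% of all genes. For 9 members (29.0%) the values of the 4 arrays on each side were fully separated, against 8.16% of all genes. Of these 6 were lower, against 3.75% of all genes, and 3 higher, against 4.41%. With array weights from limma 7 members were called, all lower. They were Hspa1b, Hspa8, Hsph1, Bag3, Dnajb1, Hspb1 and Cryab, and that fit called 1416 genes where the unweighted fit called 112. With the model fitted on these 8 arrays alone 1 member, Hspa1b, was called (adjusted p = 0.041). The share of all genes called by that fit is not given here, so this count has no background beside it.

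Hspa1b, the stress-inducible cytosolic HSP70, had log2 signals of 11.93, 11.68, 11.80 and 11.25 in p38α-lox and of 9.49, 10.59, 10.17 and 10.57 in p38α-lox PyMT. The lowest p38α-lox array lay above the highest p38α-lox PyMT array. The log2 difference was -1.46 ± 0.367 (SE), a 2.75-fold lower signal (limma adjusted p = 0.0813; 0.00591 to 0.211 over all alternatives). The other Hspa1b probe sets, which were not used in the test, differed by -2.28 and -2.13. Its constitutive relative Hspa8, which serves the same folding cycle in unstressed cells, differed by -0.31 ± 0.159 and its arrays overlapped. Of its other probe sets 2 differed by -0.28 and -0.35, and the dimmest by -1.71.

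Hsph1, an HSP110 protein that releases nucleotide from HSP70, had signals of 11.37, 10.62, 11.02 and 11.20 in p38α-lox and of 9.65, 9.84, 9.69 and 10.60 in p38α-lox PyMT. The groups were separated narrowly, by p38α-lox replicate 2 and p38α-lox PyMT replicate 4. The difference was -1.11 ± 0.348 (limma adjusted p = 0.173; 0.0173 to 0.392 over all alternatives). The J-domain protein Dnajb1, which activates HSP70, differed by -0.97 ± 0.414 with overlapping arrays (adjusted p = 0.353), from 11.04, 10.39, 11.51 and 10.03 to 9.42, 10.36, 9.66 and 9.67. The inducible HSP90 gene Hsp90aa1 differed by -0.96 ± 0.502 (adjusted p = 0.483). Its highest p38α-lox PyMT array was 10.37 and its lowest p38α-lox array 10.57.

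Among the small heat shock proteins, which hold unfolded proteins without using ATP, Cryab and Hspb1 were lower. Cryab had signals of 9.64, 9.39, 10.54 and 10.34 in p38α-lox and of 7.23, 8.67, 8.52 and 8.27 in p38α-lox PyMT. Its difference was -1.80 ± 0.632 (adjusted p = 0.228), and without p38α-lox PyMT replicate 1, the lowest of these arrays, it was -1.49. A dimmer second Cryab probe set differed by -1.82, while the dimmest, with a mean signal of 6.01, differed by 0.45 in the opposite direction. Hspb1 had signals of 12.73, 12.62, 12.87 and 12.60 against 11.66, 12.23, 12.12 and 12.31, a difference of -0.63 ± 0.222 (adjusted p = 0.238). All 4 Hspb1 probe sets had a lower mean in p38α-lox PyMT. Hspb8, the partner of the HSP70 adaptor Bag3 in chaperone-assisted autophagy, had a higher mean (1.40 ± 0.659, adjusted p = 0.414) with overlapping arrays, and p38α-lox replicate 2 was at 4.94, far below the other arrays.

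Not all members were lower. Hspa14, a ribosome-associated HSP70 relative, had signals of 6.27, 5.67, 6.31 and 6.48 in p38α-lox and of 7.12, 7.003, 6.63 and 7.40 in p38α-lox PyMT. Every p38α-lox PyMT array lay above every p38α-lox array, and the difference was 0.86 ± 0.313 (adjusted p = 0.256). Hspa9, the HSP70 of the mitochondrial matrix, had signals of 9.24, 9.13, 9.40 and 9.21 against 9.83, 9.54, 9.81 and 9.91, again without overlap (0.53 ± 0.245, adjusted p = 0.405). Tcp1, a subunit of TRiC, was the third such gene, with a small difference of 0.17 ± 0.234. Bag1, a nucleotide exchange factor, differed by 0.52 ± 0.187 (adjusted p = 0.246) with overlapping arrays. In contrast to Hspa9, the mitochondrial co-chaperonin Hspe1 was lower without overlap (-0.36 ± 0.158, adjusted p = 0.363), with 11.93, 11.74, 11.68 and 11.86 against 11.36, 11.55, 11.30 and 11.55. The median over the 31 members was -0.06, against -0.02 over all genes. Without p38α-lox PyMT replicate 2 it was -0.14 and without replicate 3 of that group -0.01.

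Of the 6 members whose arrays lay lower without overlap, 4 had a promoter in the RefSeq table, and all 4 (Hspa1b, Hsph1, Hspb1 and Hspe1, shown above) held a pair of heat shock units. Of the 3 members that lay higher without overlap, 2 had a promoter in the table and 0 held the pair. Among members with overlapping arrays 6 of 20 held it. Those without it included Dnajb1, which was lower at an unadjusted p below 0.05 by limma, and Bag3, which was called lower with array weights. These groups of members were formed after their values were seen, so the counts are a description. Hsf1 was not analysed, and its part in the differences was not tested.

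**Figure D3:**
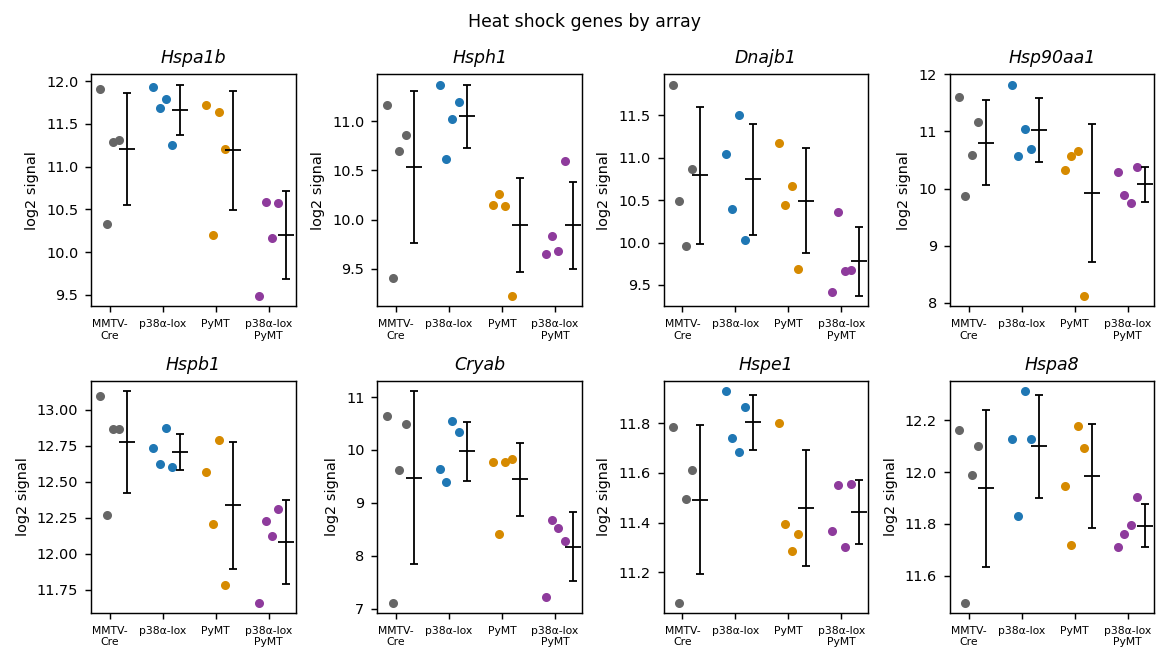
Log2 signal (vertical axes, which do not start at 0) of 8 heat shock genes in each array of the 4 groups. Points are arrays, and the black mark is the group mean with its SD (n = 4). For Hspa1b the p38α-lox PyMT arrays reach 10.59 at most and the p38α-lox arrays 11.25 at least.

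Genes of other kinds also differed in the same comparison, where 6695 of all 14410 genes had higher estimates. Basal markers, which label the myoepithelial layer, had higher estimates in p38α-lox PyMT for 7 of 8 tested genes with a median of 1.61, and their mean log2 signal ran from 7.33 to 8.14 there against 5.37 to 7.23 in p38α-lox. Among the basal markers 0 were called. Of 4 tested leukocyte markers 3 had higher estimates, with a median of 0.16 and a lowest estimate of -0.08. Only the macrophage gene Cd68 was called (2.74 ± 0.56, adjusted p = 0.0357). The mean of the leukocyte markers, whose difference rested mostly on Cd68, ran from 5.66 to 5.99 against 4.70 to 5.59. The leukocyte antigen Ptprc was below the filter. All 3 tested fibroblast markers had higher estimates, with a median of 1.25, and 0 were called. Their mean ran from 5.09 to 8.18 against 5.20 to 6.06. Immediate early genes, which respond within minutes to growth factor signals, had higher estimates for 12 of 16, and Fosb was called (2.38 ± 0.413, adjusted p = 0.0167). The part of these genes in the chaperone differences was not tested. In bulk RNA, fewer cells of a type and less RNA per cell cannot be told apart.

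The comparison of PyMT with MMTV-Cre asks the same question on the background without the floxed allele. Most members had lower means with the oncogene, 24 of 31 against 45.0% of all genes, yet 0 members were called by limma (1.26% of all genes). At an unadjusted p below 0.05 there were 3 members (9.68%), all lower, against 13.8% of all genes in either direction, and 5.98% in the lower direction. The HSP90 co-chaperones Stip1 and Cdc37 and the TRiC subunit Cct5 were these 3. The median member difference was -0.30 against 0.03 over all genes, and it was -0.07 without PyMT replicate 4.

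Stip1, the adaptor that joins HSP70 to HSP90, had signals of 9.16, 8.98, 9.21 and 8.89 in MMTV-Cre and of 8.64, 8.93, 8.46 and 7.78 in PyMT. Only PyMT replicate 2 reached the MMTV-Cre range. The difference was -0.61 ± 0.219 (limma adjusted p = 0.209; 0.0747 to 0.463 over all alternatives), and without PyMT replicate 4 it was -0.38. Cdc37, which brings kinases to HSP90, had 10.31, 10.18, 9.16 and 9.24 in MMTV-Cre and 9.27, 8.89, 9.24 and 9.11 in PyMT. Its MMTV-Cre arrays fell into a high and a low pair, which match the lower and the higher range of the numbers in the sample titles. Within the lower range the difference was -1.16 and within the higher range, with 1 PyMT array, 0.04, against -0.60 ± 0.244 over all arrays (adjusted p = 0.281). Ahsa1, the activator of the HSP90 ATPase, differed by -0.49 ± 0.241 (adjusted p = 0.399). Its signals were 8.09, 7.60, 8.11 and 8.13 against 7.71, 6.97, 7.85 and 7.44. Hsp90aa1 itself differed by -0.88 ± 0.502, of which PyMT replicate 4 held much, with 8.13 against 10.32 to 10.66 in the other PyMT arrays.

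For TRiC, 7 of 8 subunits had lower estimates in PyMT, between -0.44 and -0.09, with a median of -0.26. Without PyMT replicate 4 there were 6 of 8, and the median was -0.10. Cct5 had 11.15, 10.72, 11.06 and 10.93 in MMTV-Cre and 10.71, 10.98, 10.57 and 9.86 in PyMT (-0.44 ± 0.193, adjusted p = 0.33), and without PyMT replicate 4 the difference was -0.21. Cct3 was the exception at 0.20 ± 0.197. Bag1 was the 1 member whose arrays did not overlap, where 7.09% of all genes did not and 4.44% lay higher, with 8.51, 8.81, 8.87 and 8.90 in MMTV-Cre and 9.00, 9.26, 9.07 and 9.28 in PyMT (0.38 ± 0.187, adjusted p = 0.394). Hspa1b, which had the smallest p of the members on the floxed background, differed here by -0.02 ± 0.367, with a 95% interval from -0.80 to 0.77. Its dimmer probe sets differed by -0.72 and -0.90.

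In the same arrays 6 of 16 immediate early genes were called, all higher with PyMT, among them Egr1 (2.59 ± 0.452), Fosl1 (2.21 ± 0.393) and Nr4a1 (1.99 ± 0.386), with adjusted p of 0.0139, 0.0143 and 0.0242. Estimates were higher for 11 of the 16 genes and lower for 5, down to -1.06. The mean of this list ran from 9.09 to 9.48 in PyMT and from 8.15 to 8.79 in MMTV-Cre. Of the basal markers, 6 of 8 had higher estimates, against 7932 of all 14410 genes, and Trp63 was called (2.205 ± 0.39, adjusted p = 0.0142). Their mean ran from 7.12 to 8.00 against 5.76 to 7.57. The part of either list in the member values was not tested.

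**Figure D4:**
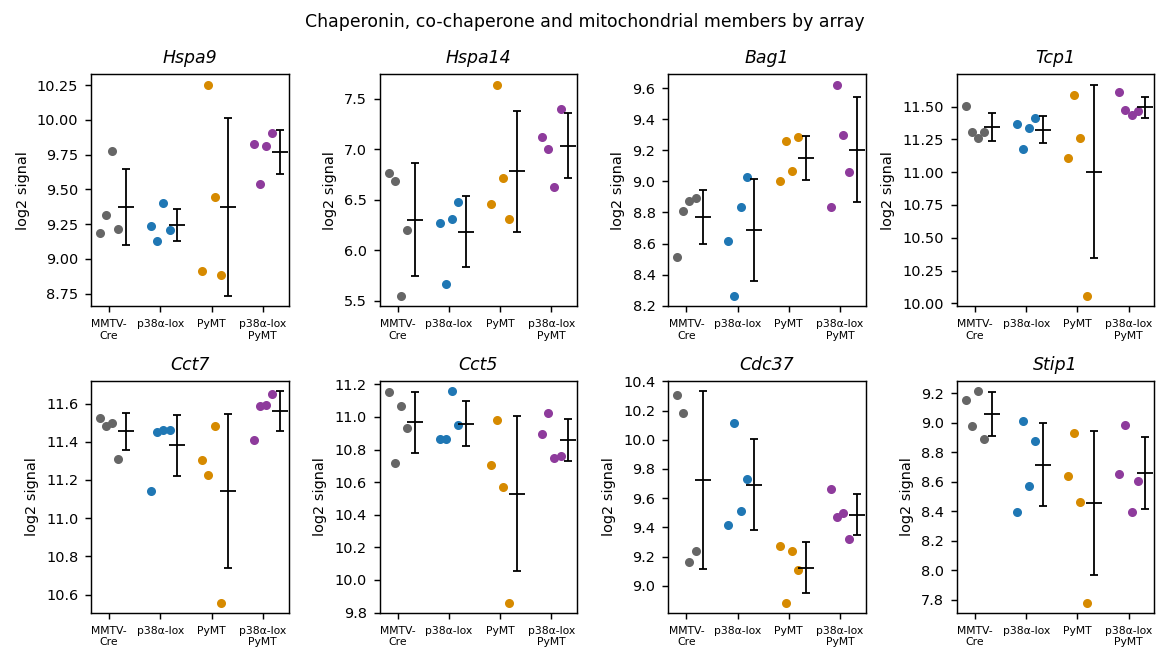
Log2 signal (vertical axes, which do not start at 0) of 8 chaperonin, co-chaperone and mitochondrial members in each array of the 4 groups. Points are arrays, and the black mark is the group mean with its SD (n = 4). PyMT replicate 4 is the lowest of all arrays for Tcp1, Cct7, Cct5 and Stip1, with 10.06, 10.56, 9.86 and 7.78.

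The comparison of p38α-lox PyMT with PyMT asks what the floxed p38α allele changes in cells that carry the oncogene. TRiC subunits had slightly higher means with the floxed allele and Hspa1b, Cryab and Dnajb1 lower ones, but 0 of 31 members were called by limma, as for all genes (0%). At an unadjusted p below 0.05 there were 2 members (6.45%) against 3.58% of all genes, with Cct7 higher (1.07% of all genes) and Hspa1b lower (2.51%). The estimate alone was higher for 21 of 31 members, against 41.8% of all genes. The median member difference was 0.22 against -0.04 over all genes, and it was 0.08 without PyMT replicate 4.

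Hspa1b had signals of 11.72, 10.20, 11.64 and 11.21 in PyMT against the 9.49 to 10.59 of p38α-lox PyMT. PyMT replicate 2 lay within the p38α-lox PyMT range and the other 3 above it. The difference was -0.99 ± 0.367, a 1.98-fold lower signal (limma adjusted p = 0.999; 0.16 to 1 over all alternatives). It was -1.32 without PyMT replicate 2 and -0.75 without p38α-lox PyMT replicate 1. The other probe sets of Hspa1b differed by -1.44 and -1.34. Cryab differed by -1.28 ± 0.632 (adjusted p = 0.999), with PyMT signals of 9.77, 8.42, 9.78 and 9.84. Its dimmer probe sets differed by -1.04 and, for the dimmest, 0.22 in the opposite direction. Dnajb1 differed by -0.71 ± 0.414, with PyMT signals of 11.17, 10.45, 10.66 and 9.69. Without PyMT replicate 1 its difference was -0.49.

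Of the 8 TRiC subunits 7 had higher estimates in p38α-lox PyMT, up to 0.49 ± 0.234 for Tcp1, and Cct3 was at -0.17 ± 0.197. Their median was 0.29, and 0.13 without PyMT replicate 4, where 6 of 8 were higher. Cct7 had signals of 11.31, 11.22, 11.48 and 10.56 in PyMT and of 11.41, 11.59, 11.59 and 11.65 in p38α-lox PyMT (0.42 ± 0.168, adjusted p = 0.999). Tcp1 had 11.11, 11.59, 11.26 and 10.06 against 11.61, 11.47, 11.44 and 11.46. In both genes PyMT replicate 4 lay far below the rest, and without it the differences were 0.22 for Cct7 and 0.18 for Tcp1. All 5 tested HSP90 genes and co-chaperones had higher estimates, between 0.15 and 0.36. Without PyMT replicate 4 there were 3 of 5, with Hsp90aa1 at -0.44 and Stip1 at -0.02. Cdc37 was the 1 member without overlap of the arrays, where 2.55% of all genes had none and 0.659% lay higher, with 9.66, 9.47, 9.50 and 9.32 in p38α-lox PyMT above the 8.89 to 9.27 of PyMT (0.36 ± 0.244). The PyMT and the p38α-lox PyMT arrays also enter the preceding comparisons, so these values are not independent of them.

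Without the oncogene, the floxed allele was compared between p38α-lox and MMTV-Cre. Differences were small and of mixed sign in most roles, and 0 of 31 members were called by limma (0% of all genes). At an unadjusted p below 0.05 there was 1 member (3.23%), Chordc1, against 4.79% of all genes and 2.32% in the higher direction, and the arrays did not overlap for 0 members against 2.10% of all genes. Chordc1, an HSP90 co-chaperone with zinc-binding domains, had signals of 8.51, 8.05, 7.84 and 8.32 in MMTV-Cre and of 9.19, 8.47, 8.50 and 9.06 in p38α-lox. Only MMTV-Cre replicate 1 lay within the p38α-lox range. The difference was 0.62 ± 0.227, a 1.54-fold higher signal (limma adjusted p = 0.907; 0.334 to 1 over all alternatives).

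Hsph1 differed by 0.52 ± 0.348 (adjusted p = 0.999), with 11.16, 9.41, 10.70 and 10.86 in MMTV-Cre. Without MMTV-Cre replicate 2, which held the lowest Hsph1 signal of that group, the difference was 0.14. Hspe1 differed by 0.31 ± 0.158, with 11.79, 11.08, 11.49 and 11.61 in MMTV-Cre, and by 0.17 without the same array. Hspa1b followed this pattern with 11.91, 10.33, 11.28 and 11.31 in MMTV-Cre and a difference of 0.46 ± 0.367. It was 0.16 without the same array, and its dimmer probe sets differed by 0.12 and -0.11. Stip1 differed by -0.34 ± 0.219, with p38α-lox signals of 8.40, 9.01, 8.57 and 8.88. Bag3, an HSF1 target that links HSP70 to autophagy, differed by -0.68 ± 0.483, with 8.16, 7.40, 7.77 and 7.53 in MMTV-Cre and 6.77, 6.43, 8.04 and 6.88 in p38α-lox. With p38α-lox replicate 3 left out the Bag3 difference was -1.02, and with array weights it was -0.07. For TRiC, 7 of 8 subunits had lower estimates, with a median of -0.07, but this rested on p38α-lox replicate 2. Without that array 6 of 8 had higher estimates, with a median of 0.03. The estimate alone was lower for 20 of 31 members, against 49.9% of all genes. The median over all members was -0.05 against 0.00 over all genes, and it was 0.07 without p38α-lox replicate 2.

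**Figure D5:**
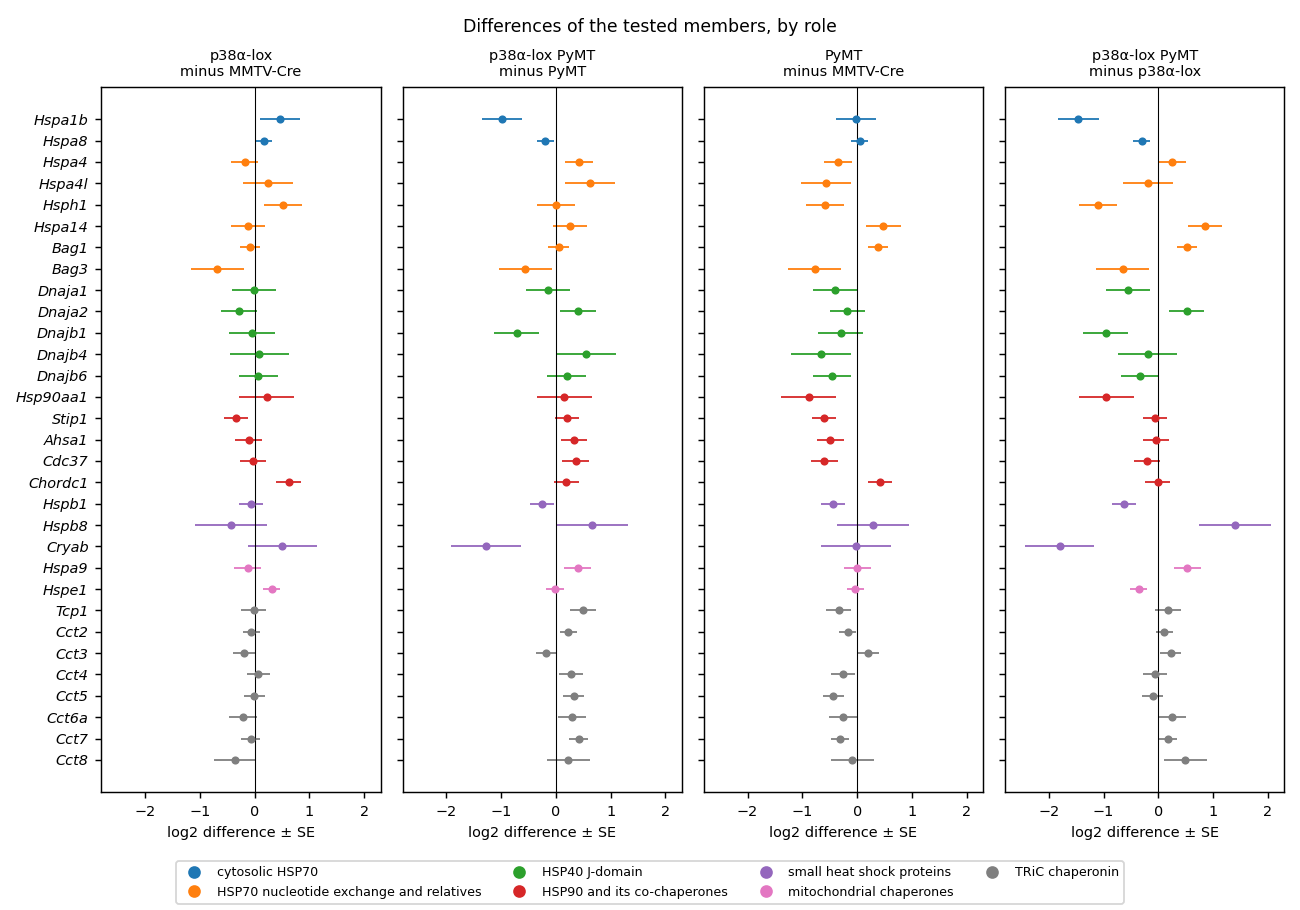
Log2 differences with their SE (horizontal axes) of the 31 tested members in 4 comparisons, coloured by role. TRiC subunits lie mostly below 0 in PyMT minus MMTV-Cre and above 0 in p38α-lox PyMT minus PyMT, while Hspa1b lies at -1.46 and Cryab at -1.80 in the panel of p38α-lox PyMT minus p38α-lox. No member passed the adjusted threshold in these panels.

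The interaction is the difference made by the floxed allele with PyMT minus the same difference without PyMT. By limma 0 of 31 members and 0% of all genes were called. At an unadjusted p below 0.05 there was 1 member (3.23%), Hspa1b, against 2.82% of all genes and 1.80% in the lower direction, a share near the background. The Hspa1b interaction was -1.44 ± 0.519 (adjusted p = 0.992; 0.245 to 1 over all alternatives), with a 95% interval from -2.55 to -0.34. Cryab followed with -1.78 ± 0.893, of which MMTV-Cre replicate 2, at 7.12 against 9.62 to 10.65 in the other MMTV-Cre arrays, held much. Without that array it was -0.997. The dimmer Cryab probe sets gave interactions of -1.20 and, for the dimmest, 1.08 in the opposite direction. All 8 TRiC subunits had positive estimates, from 0.02 to 0.58 with a median of 0.41, where 44.8% of all genes did. Without p38α-lox replicate 2 and PyMT replicate 4 there were 5 of 8, with a median of 0.08. The interactions of Cct7, Stip1 and Hspa4 were 0.49 ± 0.238, 0.55 ± 0.309 and 0.60 ± 0.36, each with an adjusted p of 0.992. Without PyMT replicate 4 they were 0.30, 0.33 and 0.36. The other Hspa4 probe sets gave 0.15 and 0.004, and the other Cct7 probe set 0.59. Hspa4, an HSP110 relative of Hsph1, had 9.57, 9.65, 9.94 and 9.77 in MMTV-Cre, 10.003, 9.27, 9.36 and 9.56 in p38α-lox, 9.03, 9.89, 9.96 and 8.68 in PyMT and 10.03, 9.58, 9.77 and 9.83 in p38α-lox PyMT. The median over all members was 0.28 against -0.04 over all genes. Without PyMT replicate 4 it was 0.02, and without both that array and p38α-lox replicate 2 it was -0.03.

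Other chaperone genes were set beside the members. Of 41 further cytosolic chaperone and co-chaperone genes, prefoldin subunits included, 39 were tested and 0 were called in any of the 5 contrasts. The smallest adjusted p among them belonged to Nudc, an HSP90-associated protein, with -0.81 ± 0.201 in PyMT minus MMTV-Cre (limma adjusted p = 0.0687). In p38α-lox PyMT minus PyMT Nudc differed by 0.63 ± 0.201 (adjusted p = 0.999). The HSP70 gene Hspa2 differed by 0.98 ± 0.308 in PyMT minus MMTV-Cre and by 0.85 ± 0.308 in p38α-lox PyMT minus p38α-lox (adjusted p = 0.139 and 0.251). Their medians were -0.14 and 0.04 in these contrasts. Of 12 genes of mitochondrial protein quality control 11 were tested and 0 were called in any contrast. The protease Lonp1 differed by -0.59 ± 0.29 in PyMT minus MMTV-Cre. The HSP70 exchange factor Grpel1 differed by 0.38 ± 0.167 in p38α-lox PyMT minus p38α-lox. In that contrast 10 of the 11 had higher estimates, against 6695 of all 14410 genes. The exception was Grpel2, a relative of Grpel1, at -0.65.

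Members also differed in how far replicate arrays spread. The within-group SD on the log2 scale was 1.03 for Hspb8, 0.98 for Cryab, 0.84 for Dnajb4, 0.78 for Hsp90aa1 and 0.75 for Bag3, and each of these exceeded at least 94.1% of all tested genes. It was 0.21 for Hspa8, Hspe1 and Cct2 and 0.23 for Cct7, below the median gene.

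The remaining members had no unadjusted p below 0.05 in any contrast. They are Hspa4l, an HSP110 relative, the J-domain proteins Dnaja1, Dnaja2, Dnajb4 and Dnajb6, and the TRiC subunits Cct2, Cct4, Cct6a and Cct8. All 5 J-domain genes had lower means in PyMT than in MMTV-Cre, from -0.66 ± 0.543 for Dnajb4 to -0.18 ± 0.325 for Dnaja2, where 45.0% of all genes were lower. Without PyMT replicate 4 only 3 of the 5 were lower, and their median went from -0.41 to -0.03. PyMT replicate 4 held the lowest signal of the 16 arrays for Hspa4l (5.85), Dnaja1 (8.01), Dnaja2 (7.32), Dnajb4 (5.75) and Dnajb6 (8.24), and also for Cct4 (9.67). For Cct2, Cct6a and Cct8 the lowest array was p38α-lox replicate 2, with 10.95, 9.92 and 7.23. The same pair of arrays thus held the lowest values of the 9 genes.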

How the data were processed

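Each array's deposited signal is on the log2 scale, with 1 value for every probe set. The authors used RMA, per the submitters' processing notes; version and settings are unknown here. Of 45141 probe sets, 28898 carried 1 gene symbol, 551 several and 15692 none in the annotation table; single symbols were updated through Entrez IDs (RefSeq, GRCm38.p6). Each gene was read by its single-symbol probe set of highest mean. Genes were tested if that mean reached 3.67, the 25th percentile over probe sets.

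One limma 3.58.1 model (R 4.3.3) with 4 group means covered all 16 arrays. Called means an adjusted p under 0.05, by Benjamini-Hochberg across the 14410 genes that passed the filter. Errors are SE for differences and SD for group means. The procedure was tested on simulated data. Named members are the 5 with the smallest p per contrast and defining members of each role. Genes outside this rule were named after their values were seen. The reason was non-overlapping arrays or, as for Hspb8 and Cct3, a direction unlike the rest of their role. Members and lists were chosen with earlier results of these data known. Replicate numbers follow accession order. The number of arrays limits the precision. Title numbers form a lower and a higher range of unstated meaning. Alternatives were other filters, probe set means, variance models, normalizations, array weights, the compared arrays alone, a block for title range and leaving out arrays.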

Additional observations from a re-analysis of the deposited data

Results flagged for a closer look

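Within groups of 4 arrays, 132 sets of values (32 members and Mapk14 in 4 groups) were screened for a single array far from the other 3, which chance alone flags in about 1 of 20 groups. It flagged 7. PyMT replicate 4 was far below its group for Hsph1 (9.23, the next array at 10.13) and Hsp90aa1 (8.13, next 10.32), and PyMT replicate 2 for Cryab (8.42, next 9.77). In p38α-lox, replicate 1 was high for Dnaja2 (8.89, next 7.93) and low for Cct7 (11.14, next 11.45), and replicate 2 was low for Cct8 (7.23, next 9.08). MMTV-Cre replicate 2 was low for Ahsa1 (7.60, next 8.09). The interaction called 0 members, so no member is listed for a difference between backgrounds.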

How the results depend on the processing

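The number of members called was 0 in all 5 contrasts as reported and when each array was left out in turn (0 to 0). In p38α-lox PyMT minus p38α-lox it was 7 with array weights and 1 with the compared arrays alone, the latter without a share of all genes beside it. In every other alternative and contrast it was 0. With array weights Hspa1b, Cryab, Hspb1 and Hsph1 were called there, at -1.37, -2.11, -0.64 and -1.02. Leaving out arrays in turn, the median member difference ran from -0.10 to 0.07 in p38α-lox minus MMTV-Cre, from 0.08 to 0.37 in p38α-lox PyMT minus PyMT, from 0.02 to 0.34 for the interaction, from -0.40 to -0.07 in PyMT minus MMTV-Cre and from -0.14 to -0.01 in p38α-lox PyMT minus p38α-lox. Without p38α-lox replicate 2 and PyMT replicate 4 together, chosen after seeing the data, the interaction median was -0.032. The longer heat shock motif was found in 3 members in place of 13, by its construction. Of the 5 other Mapk14 probe sets, all were opposite in sign to the one used in p38α-lox PyMT minus PyMT (0.0287), at -0.0139, -0.0319, -0.378, -0.107 and -0.0129. In p38α-lox minus MMTV-Cre all 6 were higher, by 0.07 to 0.78. For the 25 named member differences, the other 480 values kept their direction and their side of the threshold. Apart from these statements the causes were not tested. No paired analysis was possible because the labels carry no replicate numbers. Signal near background limits Hsf2.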
